A study of Mus musculus with 70 samples.

Results

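The comparison described here sets neural stem cells (NSC) of the embryonic mouse cortex at the stage E17.5 (days of embryonic life) against those at E16.5, the day over which cortical stem cells are known to turn from making neurons to making glia. It rests on 7 of the 70 RNA sequencing libraries of the series, chosen by cell type and stage alone: 3 libraries of E17.5 NSC and 4 of E16.5 NSC. Both groups were wild-type C57Bl/6 embryos that carried the Hes5::GFP reporter, whose dorsal cortices were dissected and dissociated with papain before GFP-positive cells were sorted. Hes5 is a target of Notch signalling, so the gate holds cells with an active Hes5 reporter, and the level of Hes5 itself is not independent of the sort. Neighbouring NSC stages (3 libraries at E18.5 and 4 at E15.5) and basal progenitors (BP) sorted from Tbr2::GFP cortices (2 libraries at E17.5 and 3 at E16.5) served for comparison, as did 3 libraries of Tbr2::GFP newborn neurons (NBN) at E16.5. None of the sources used here gives the number of embryos behind a library, so p-values measure the spread between libraries, which may be technical.

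Cortical stem cells, or radial glia, line the ventricle and divide to give basal progenitors and then excitatory neurons, deep layers first and upper layers later. Towards birth they turn to astrocytes and oligodendrocyte precursors, a change known to need cytokine signals through gp130 and STAT3, Notch activity, bone morphogenetic proteins (BMP) with their Id targets, and transcription factors such as Sox9 and the nuclear factor I family. Notch effectors of the Hes and Hey families and the Id proteins hold back the proneural factors that drive neuron formation.

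Expression was given as TPM, the share of a gene's transcripts scaled to the same total in each library, so sequencing depth is unknown and a value of 0 says only that a gene was listed at 0. The 7 libraries listed 17446 to 18089 genes above 0. On log2(TPM + 1), E17.5 libraries correlated with each other at 0.982 to 0.993 across genes, and replicate 4 of E16.5 stood nearest to them (0.950 to 0.976). Replicate 1 of E17.5 was the library of its group most like the E16.5 group. The transcripts of 2 genes set replicate 1 of E16.5 apart: Lars2, a mitochondrial leucine tRNA synthetase gene, had 8862 TPM there against 151 to 326 TPM in the other E16.5 libraries, and AA474408 had 1043 TPM. All libraries were labelled female, but Y-linked genes summed to 125.3 TPM in E17.5 replicate 1, against 1.86 and 6.92 TPM in E17.5 replicates 2 and 3. At E16.5 the same sum was 0.552 TPM in replicate 1, against 140, 173 and 186 TPM in replicates 2 to 4. Xist, the RNA that silences an X chromosome, was high where the Y-linked sum was low. Thus 4 of the 7 libraries went against their label; with the Y-linked sum in the model 1863 genes were called, 1843 of them shared with the model without it. Of the stem cell markers, Sox9 had 18.4 to 85.3 TPM in the 7 NSC libraries, against 5.62 to 8.91 TPM in the 5 BP libraries of both days, and Slc1a3 had 99.4 to 773 TPM, against 22.5 to 39.01 TPM. Pax6 did not set them apart, at 89.01 to 195 TPM in NSC, against 71.2 to 102 TPM in BP.

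A gene was called when its limma difference on log2(TPM + 1) was at least 1 in size at a Benjamini-Hochberg adjusted p under 0.05. Of 14240 genes tested, 1914 (13.4%) were called, 975 higher (6.85%) and 939 lower (6.59%) at E17.5. The median of all genes was 0.01. Without E16.5 replicate 1 the count was 1951 (1822 shared), and without E17.5 replicate 1 and E16.5 replicate 4 together, an alternative chosen after seeing the data, it was 2764 (1902 shared). The calls, which chose for separation of these same libraries, had all 3 E17.5 libraries above all 4 E16.5 libraries for 964 of the 975 genes called higher, and below them for 913 of the 939 called lower, against 28.5% and 24.9% of all genes tested. In the glial, stem cell, Notch and cell division lists described below, members called higher outnumbered those called lower, and in the list of postmitotic neurons the reverse held. Some genes are members of several lists, so the counts of different lists are not independent.

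The genes with the largest differences were chosen for size and for no overlap between the days, so that their separation is given as a description. Among those that rose, Gdf10 (chr14:33923587-33937983 of GRCm38), a ligand of the transforming growth factor beta family, had 18.8, 20.9 and 24.6 TPM at E17.5, against 0.972, 0.262, 0.859 and 1.11 TPM at E16.5. Its E17.5 libraries were all far above the highest E16.5 library, a log2 difference of 3.66 ± 0.22 SE (limma, adjusted p = 8.35e-19). Id3 (chr4:136143497-136145755), which holds back proneural basic helix-loop-helix (bHLH) factors, had 89.2, 104 and 132 TPM at E17.5, against 20.97, 8.37, 12.2 and 17.7 TPM at E16.5. Every E17.5 library was high and every E16.5 library low, and the difference was 2.84 ± 0.24 SE (adjusted p = 2.97e-14). The gene for glial fibrillary acidic protein, Gfap, the intermediate filament of astrocytes, had 29.6, 19.3 and 35.7 TPM at E17.5, against 4.37, 2.09, 2.99 and 5.51 TPM at E16.5 (2.64 ± 0.21 SE, adjusted p = 5.37e-15). Gja1 codes for connexin 43, the gap junction protein of radial glia and astrocytes, and had 35.8, 58.1 and 57.5 TPM at E17.5, against 9.56, 5.96, 7.44 and 10.03 TPM at E16.5 (2.47 ± 0.26 SE, adjusted p = 2.77e-11).

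Vcam1, an adhesion molecule of stem cells at the ventricle, had 81.1, 97.9 and 106 TPM at E17.5, against 19.9, 11.6, 12.2 and 23.5 TPM at E16.5, with every E17.5 library high (2.48 ± 0.21 SE). The guidance cue netrin 1 (Ntn1) was less even: it had 10.9, 46.05 and 35.7 TPM at E17.5, against 3.89, 2.21, 2.59 and 2.34 TPM at E16.5, so replicate 1 of E17.5 was well below its fellows while still above E16.5 (2.89 ± 0.29 SE). Calcium-binding tescalcin (Tesc) had 24.6, 29.2 and 28.4 TPM at E17.5, against 4.94, 1.28, 1.53 and 3.07 TPM at E16.5 (3.04 ± 0.27 SE). The neurokinin B precursor Tac2 had 83.05, 62.6 and 57.1 TPM at E17.5, against 9.44, 8.95, 8.87 and 13.8 TPM at E16.5 (2.61 ± 0.30 SE). Both were high in every E17.5 library. Emp1, a tetraspan membrane protein (2.81 ± 0.39 SE), caveolin 1 (Cav1, 2.70 ± 0.31 SE), the main coat protein of caveolae, and Tril, which binds Toll-like receptors (2.47 ± 0.18 SE), complete the genes of this size apart from Ttr. Of these 7 genes Emp1 had the largest adjusted p, 1.85e-08. Ttr, a thyroid hormone carrier made in bulk by the choroid plexus, had 3.30, 205 and 7.82 TPM at E17.5, against 0.0908, 0, 0 and 0.108 TPM at E16.5. Its E17.5 mean rests on replicate 2, and its log2 difference of 4.24 ± 0.98 SE (adjusted p = 0.000211) is described below with other choroid plexus markers.

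**Figure D1:**
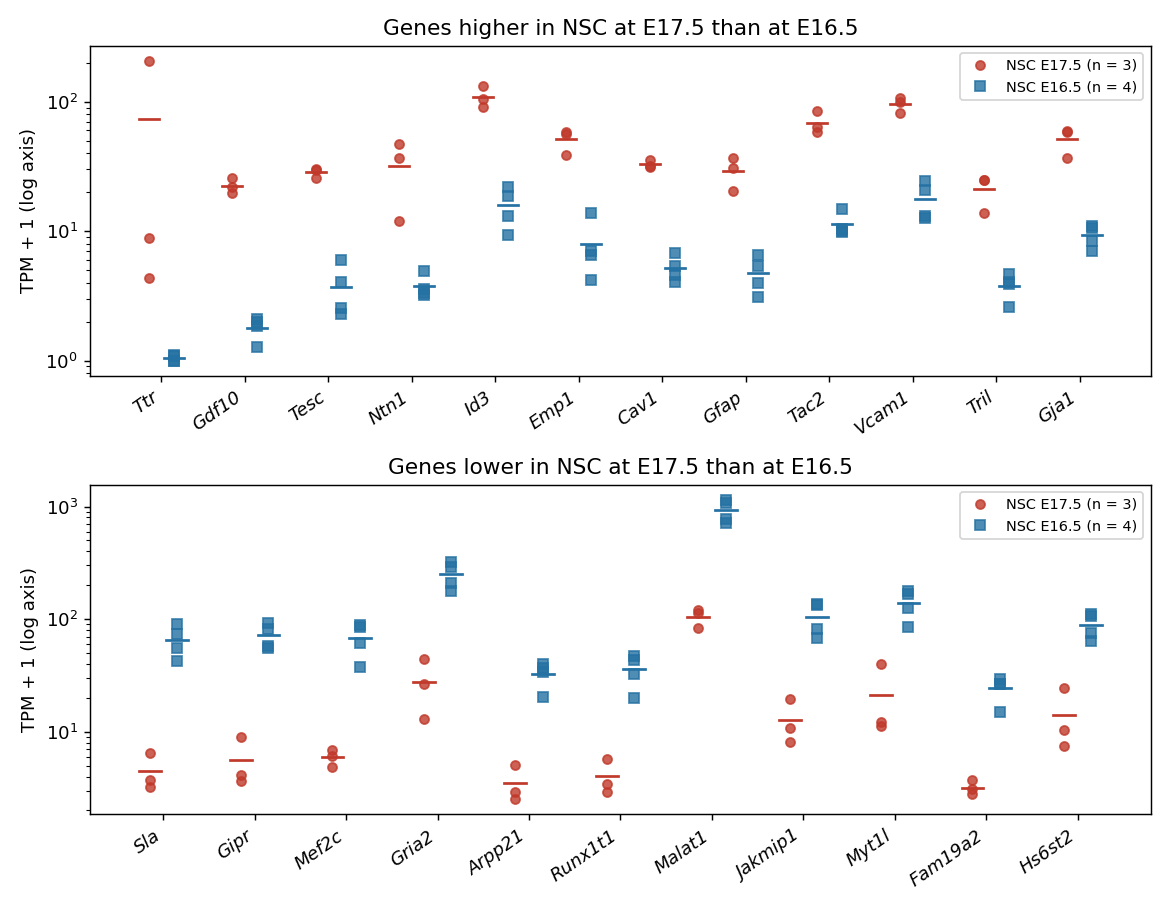
TPM + 1 on a log axis in each NSC library for the genes with the largest called differences, E17.5 as red circles (n = 3) and E16.5 as blue squares (n = 4), with horizontal bars at the group means. Upper panel, 12 genes higher at E17.5; lower panel, 11 genes lower at E17.5. The genes were chosen for a lack of overlap between the groups, so the gap is no finding.

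Several of the genes that fell furthest are known from neurons that have left the cell cycle. Sla (chr15:66780819-66831829), a Src-like adaptor, had 5.44, 2.22 and 2.75 TPM at E17.5, against 54.6, 89.7, 73.5 and 41.4 TPM at E16.5; all E17.5 libraries were low (-3.89 ± 0.35 SE, adjusted p = 3.79e-13). Mef2c (chr13:83504034-83667080), a transcription factor of maturing cortical neurons, had 5.87, 3.84 and 5.04 TPM at E17.5, against 60.8, 87.6, 84.5 and 36.5 TPM at E16.5 (-3.47 ± 0.28 SE, adjusted p = 9.13e-15). Myt1l, which represses non-neuronal genes in neurons, had 38.9, 10.3 and 11.3 TPM at E17.5, against 124.8, 167, 177 and 84.7 TPM at E16.5, with replicate 1 the highest of the E17.5 libraries and replicate 4 the lowest at E16.5 (-2.92 ± 0.27 SE, adjusted p = 6.73e-13). The same ranking of those libraries was seen for Gria2, an AMPA receptor subunit, which had 43.1, 11.99 and 25.5 TPM at E17.5, against 209.6, 292, 322 and 178 TPM at E16.5 (-3.30 ± 0.30 SE, adjusted p = 5.02e-13).

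Gipr, the receptor of an incretin hormone, fell as far as the neuronal genes, with 7.91, 2.64 and 3.12 TPM at E17.5, against 54.3, 90.5, 81.5 and 56.5 TPM at E16.5 (-3.78 ± 0.20 SE, adjusted p = 1.4e-20). Arpp21 (-3.25 ± 0.23 SE), a phosphoprotein of neurons, Runx1t1 (-3.15 ± 0.33 SE), a transcriptional corepressor, and Jakmip1 (-3.07 ± 0.26 SE), a microtubule-associated protein of neurons, fell by similar amounts. So did Fam19a2 (-2.89 ± 0.21 SE), which codes for a small secreted protein of the brain, and Hs6st2 (-2.80 ± 0.24 SE), a heparan sulfate sulfotransferase. Malat1, a nuclear long noncoding RNA, stood apart from these by its level: 112, 82.2 and 119 TPM at E17.5, against 1147, 708, 1074 and 778 TPM at E16.5, with every E16.5 library high (-3.13 ± 0.28 SE, adjusted p = 2.41e-13). Its course over the other days is given further on.

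Glial lineage lists moved together. Of 19 astroglia genes tested, 15 were higher and none lower, with a median of 1.67 on the log2 scale against 0.01 over all genes. Apoe, the main lipoprotein of astrocytes, had 365, 599 and 591 TPM at E17.5, against 148, 62.97, 92.3 and 132 TPM at E16.5, each E17.5 value more than 2 times the highest at E16.5 (2.28 ± 0.24 SE, adjusted p = 2.12e-11). Slc1a3, the glutamate transporter GLAST, averaged 647 ± 109.6 TPM at E17.5 and 144 ± 39.97 TPM at E16.5 (SD, n = 3 and 4; 2.19 ± 0.19 SE). Mlc1 and Hepacam, partner proteins of astrocyte end-feet, rose by 2.38 and 2.26; the secreted chaperone clusterin (Clu) rose by 2.41, and Aqp4, the water channel of end-feet, by 1.77 while still at 8.42, 7.41 and 14.3 TPM at E17.5, against 2.38, 1.41, 2.02 and 2.86 TPM at E16.5. S100b (log2 difference 0.46), Glul (0.95), Slc4a4 (0.73) and Acsl6 (-0.22) were not called. The summed TPM of the astroglia list was 2682, 3269 and 3483 TPM at E17.5, against 1175, 865, 993 and 1399 TPM at E16.5, with no overlap.

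Oligodendrocyte lineage genes were higher in 10 of 12 cases and lower in 1. Olig1, a transcription factor of the lineage, had 189.7, 209.6 and 256 TPM at E17.5, against 103, 49.9, 86.2 and 100.2 TPM at E16.5 (1.40 ± 0.26 SE, adjusted p = 8.96e-06). Pdgfra, the growth factor receptor that marks oligodendrocyte precursors, had 48.4, 74.8 and 97.3 TPM at E17.5, against 27.4, 13.1, 20 and 20.6 TPM at E16.5 (1.80 ± 0.21 SE). Gpr17 (2.07), a receptor of committed precursors, the lineage factors Nkx2-2 (1.53) and Sox10 (1.24), and the proteoglycan gene Cspg4 (1.4995) rose too, while Mbp of mature myelin had a difference of -0.04 and was not called. With a pseudocount of 5, the count of called members was 5 higher and 0 lower. Bulk libraries cannot tell more cells of a type from more RNA per cell.

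For the gliogenic transcription factors, 13 of 20 were higher and none lower (median 1.32). This list shares members with others: Id3 is also in the BMP and Id list, and Sox9 in the stem cell list. Sox9, which is needed for the switch, had 74.7, 65.9 and 85.3 TPM at E17.5, against 29.6, 18.4, 26.9 and 38.9 TPM at E16.5 (1.41 ± 0.18 SE, adjusted p = 4.12e-09). Klf15 and Klf9, Krüppel-like transcription factors, rose by 1.48 and 1.28. The nuclear factor I genes Nfia (-0.39), Nfib (-0.91) and Nfix (-0.21) were not called, nor was Zbtb20 (-0.57); Nfib had 359.6, 118 and 189 TPM at E17.5, against 346, 395, 456 and 325 TPM at E16.5, so its groups overlapped through E17.5 replicate 1.

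**Figure D2:**
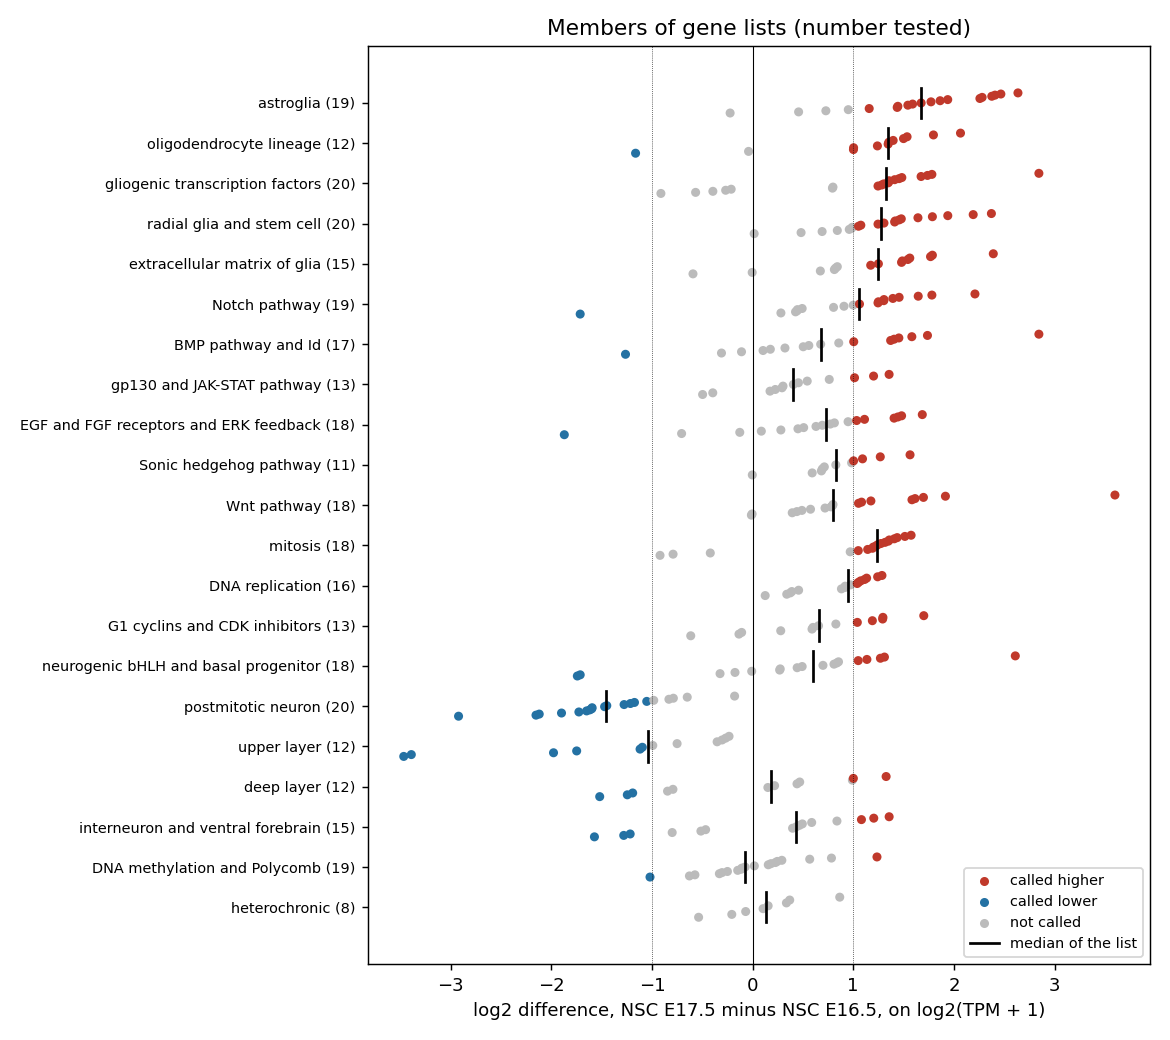
Log2 difference of each tested member of 21 gene lists, NSC E17.5 minus NSC E16.5 on log2(TPM + 1), with members called higher in red, called lower in blue and not called in grey; black ticks mark list medians and dotted lines the minimum of 1 in either direction. Astroglia (median 1.67) lie to the right and postmitotic neuron genes (median -1.46) to the left.

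Promoters are shown for 3 of the glial genes with the largest differences, because STAT, nuclear factor I and bHLH sites are the elements through which gliogenic signals are known to act. They run from 250 bases before to 50 after the start site, are from RefSeq (build GRCm38.p6) and read 5′ to 3′ on the gene's strand, in lower case.
Id3, chr4:136143572-136143871, plus strand: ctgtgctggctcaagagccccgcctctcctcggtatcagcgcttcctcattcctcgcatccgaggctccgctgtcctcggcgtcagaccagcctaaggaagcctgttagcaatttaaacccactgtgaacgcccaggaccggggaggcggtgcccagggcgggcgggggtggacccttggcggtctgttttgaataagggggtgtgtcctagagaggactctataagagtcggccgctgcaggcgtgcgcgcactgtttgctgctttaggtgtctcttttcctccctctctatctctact
Gfap, chr11:102897151-102897450, minus strand: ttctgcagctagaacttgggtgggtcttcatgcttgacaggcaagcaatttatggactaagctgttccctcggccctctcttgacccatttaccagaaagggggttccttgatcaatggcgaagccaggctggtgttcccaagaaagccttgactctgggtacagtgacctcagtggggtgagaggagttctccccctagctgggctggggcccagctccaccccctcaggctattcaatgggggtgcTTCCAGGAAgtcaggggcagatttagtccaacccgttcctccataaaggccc
Gja1, chr10:56377050-56377349, plus strand: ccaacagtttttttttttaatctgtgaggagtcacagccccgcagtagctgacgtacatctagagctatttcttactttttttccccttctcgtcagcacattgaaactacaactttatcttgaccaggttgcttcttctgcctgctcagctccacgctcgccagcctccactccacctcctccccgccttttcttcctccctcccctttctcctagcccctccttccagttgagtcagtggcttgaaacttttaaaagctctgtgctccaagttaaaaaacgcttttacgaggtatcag
Capitals in the Gfap promoter mark TTCNNNGAA, the general form of a STAT site, whose first base is at position -2 from the start. A single promoter of each of these genes and of Mlc1 and Apoe was searched on both strands for that motif. TTGGCA (the core of a nuclear factor I site) and CANNTG (the E-box bound by bHLH factors) were searched for in the same way. Apoe has 3 promoters in the reference, and its result is for 1 of them. Gja1 and Mlc1 held 1 CANNTG each, and no other match was found in the promoters searched for the 5 genes. Clu had no entry. Over promoters of all tested genes, TTCNNNGAA was in 6.79%, TTGGCA in 11.3% and CANNTG in 64.2%. For genes called higher the shares were 6.60%, 13.4% and 67.1%, and for genes called lower 5.54% (48 of 867), 95 of 867 and 68.3%. A match describes letters in the window and does not show binding.

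Signalling pathways known to bear on the switch rose in part. Among 19 Notch pathway genes tested, 10 were higher and 1 lower (median 1.06). Of those called higher, Notch1, Hes1 and Hes5 are also in the stem cell list, and Hey1 and Hey2 in the gliogenic list. The receptor Notch1 had 141, 164 and 164 TPM at E17.5, against 59.3, 47.1, 64.2 and 84.9 TPM at E16.5 (1.31 ± 0.19 SE, adjusted p = 1.16e-07), and Notch2 (1.25) and Notch3 (1.65) rose as well. Lfng, a glycosyltransferase that tunes Notch receptors, had the largest difference of the list: 68.7, 80.3 and 74.9 TPM at E17.5, against 18.2, 9.69, 13.7 and 22.6 TPM at E16.5 (2.21 ± 0.21 SE). The effectors Hes1 (1.46), Hes5 (1.25), Hey1 (1.30) and Hey2 (1.78) and the feedback regulator Nrarp (1.39) were higher. Of the ligands, Jag1 rose (1.06), Jag2 fell (-1.71; 4.18, 3.02 and 2.93 TPM at E17.5, against 11.7, 15.6, 18.2 and 9.12 TPM at E16.5), and Dll1 (0.45) and Dll3 (0.91) were not called.

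BMP pathway and Id genes were higher in 7 of 17 cases (4 with a pseudocount of 5) and lower in 1. The ligands Bmp6 (1.41) and Bmp7 (1.45) rose, and so did their antagonists Nog (1.58) and Chrdl1 (1.37). Of the Id genes, Id1 had 54.99, 52.9 and 67.3 TPM at E17.5, against 17.6, 11.2, 12.9 and 30.4 TPM at E16.5 (1.74 ± 0.25 SE) and Id4 rose by 1.00, while Id2 fell, with 290.3, 158 and 198 TPM at E17.5, against 428, 609.7, 507 and 479.9 TPM at E16.5 (-1.26 ± 0.12 SE, adjusted p = 3.37e-12). Receptor and Smad genes were not called, from -0.31 (Bmpr2) to 0.86 (Bmpr1a). In the gp130 and JAK-STAT list only 3 of 13 were called, all higher: Stat3, the transcription factor of the pathway, with 46.5, 50.1 and 47.4 TPM at E17.5, against 20.3, 15.3, 17.9 and 19.4 TPM at E16.5 (1.36 ± 0.13 SE, adjusted p = 3.04e-12), Il6st, which codes for gp130 (1.202), and Cntfr, its partner for ciliary neurotrophic factor (1.01). The kinase genes Jak1 (0.29) and Jak2 (-0.50) and the target Socs3 (0.41) were not. Cntfr lost its call in 9 of 28 alternatives, the pseudocount of 5 among them, and Id4 lost its call in 6 of 28.

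Of 18 growth factor genes of the EGF and FGF group, 6 were higher and 1 lower. Fgfr3, an FGF receptor of glial progenitors, had 93.6, 94.5 and 98.4 TPM at E17.5, against 31.2, 27.4, 31.6 and 52.1 TPM at E16.5 (1.44 ± 0.19 SE), and Erbb2 rose by 1.69. The ERK targets Etv4 (1.41) and Etv5 (1.03) and the feedback inhibitors Spry1 (1.48) and Spry4 (1.11) rose. Egfr, a receptor of late progenitors, had 41.8, 27.4 and 40.4 TPM at E17.5, against 20.7, 11.7, 20 and 22.2 TPM at E16.5 and just missed the minimum (0.95). The receptor Erbb4, also found in interneurons, fell (-1.87).

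Wnt pathway genes were higher in 8 of 18 cases and lower in none. Over the wider span, E18.5 against E15.5, 1 of the 18 was called higher and 2 lower (median 0.32, against 0.12 over all genes). Wnt8b, a ligand of the medial cortical edge, had 10.1, 14.98 and 15.7 TPM at E17.5, against 0.623, 0.0487, 0.0425 and 0.117 TPM at E16.5 (3.60 ± 0.22 SE, adjusted p = 8.02e-19). Lef1, a transcription factor of the pathway, had 12.3, 12.8 and 12.4 TPM at E17.5, against 2.57, 2.59, 2.87 and 2.31 TPM at E16.5 (1.92 ± 0.16 SE). Neither overlapped, and Wnt5a (1.70) and the target Axin2 (1.18) also rose. At E15.5 Lef1 had 8.18, 15, 10.2 and 7.99 TPM, and at E18.5 it had 4.34, 5.10 and 3.02 TPM. In the Sonic hedgehog list 4 of 11 were higher (2 with a pseudocount of 5): the coreceptor Gas1 (1.56), the receptor and target Ptch1 (1.27), and the transcription factors Gli3 (1.09) and Gli1 (1.00), the last at the minimum.

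Radial glia and stem cell genes were higher in 13 of 20 cases and lower in none (median 1.28). Fabp7, the brain lipid-binding protein, had 4207, 3075 and 3842 TPM at E17.5, against 1337, 784, 888 and 2060 TPM at E16.5 (1.64 ± 0.26 SE, adjusted p = 3.56e-07). Hopx, known from outer radial glia, had 95.2, 76.2 and 94.9 TPM at E17.5, against 17.1, 10.2, 10.9 and 35.6 TPM at E16.5 (2.37 ± 0.26 SE). The filaments Vim (1.42) and Nes (1.08), Sox2 (1.05), the endothelin receptor Ednrb (1.94) and the matrix protein Tnc (1.79) rose. Pax6 (0.69) and Lhx2 (0.02), which pattern the cortex, were not called; Pax6 had 195, 161 and 184 TPM at E17.5, against 98.1, 89.01, 95.1 and 181 TPM at E16.5, so E16.5 replicate 4 lay within the E17.5 range. Of the 15 matrix genes of glia tested, 9 were higher, such as Sparc (2.39) and brevican (Bcan, 1.56), and none lower.

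Neuronal genes ran the other way. None of 20 postmitotic neuron genes was higher and 15 were lower (median -1.46). Neuronal tubulin Tubb3 had 911, 838 and 681 TPM at E17.5, against 1927, 2069, 2089 and 1304 TPM at E16.5 (-1.17 ± 0.13 SE, adjusted p = 1.16e-10). Snap25, of the vesicle fusion machinery, had 40.7, 15.7 and 20.98 TPM at E17.5, against 98.7, 129, 131 and 78.2 TPM at E16.5 (-2.12 ± 0.21 SE, adjusted p = 4.42e-12). Contactin 2 (Cntn2), of growing axons, had a difference of -2.15 ± 0.29 SE, and the microtubule proteins Mapt (-1.65) and Dcx (-1.05) fell too; Rbfox3 (-0.18) and Map2 (-0.65) were not called. The list summed to 3181, 2163 and 2146 TPM at E17.5, against 5855, 6807, 7035 and 4080 TPM at E16.5, with replicate 4 the lowest at E16.5. It summed to 5663 ± 895 TPM in E16.5 BP and 10820 ± 136 TPM in E16.5 NBN (SD, n = 3 each). Whether neurons or their RNA entered the E16.5 NSC gate to a greater extent was not tested. Among genes called lower, 465 (49.5%) had a higher mean in E16.5 NBN than in E16.5 NSC, against 142 (14.6%) of those called higher and 36.5% of all tested.

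Upper layer genes were lower in 6 of 12 cases and higher in none (median -1.04). Their summed TPM was highest at E16.5 among these days, with means of 1027 at E15.5, 1704 at E16.5, 896 at E17.5 and 814 at E18.5. Over the wider span, E18.5 against E15.5, 2 of the 12 were called higher and 6 lower. Cux2, of upper layer neurons and their progenitors, had 41.6, 25.8 and 26.5 TPM at E17.5, against 112, 145.3, 156 and 91.6 TPM at E16.5 (-1.98 ± 0.19 SE, adjusted p = 2.03e-12). The netrin receptor Unc5d (-1.10) and the POU factor Pou3f2 (-1.12) fell, whereas Cux1 (-0.30), Lmo4 (-0.75) and Rorb (-0.27) were not called. Deep layer genes were mixed, with 3 lower (Foxp2, Ldb2 and Nfe2l3), 2 higher (Crym and Zfpm2) and a median of 0.19; with a pseudocount of 5 the counts were 1 lower and 0 higher, and without E16.5 replicate 2 only 1 was higher. Fezf2 (0.44), Tbr1 (-0.79) and Bcl11b (-0.84), which specify deep layer neurons, were not called.

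Of 18 neurogenic bHLH and basal progenitor genes, 5 were higher (Tac2, Btbd17, Neurod4, Nhlh2 and Mfap4) and 2 lower (median 0.60), with 3 higher at a pseudocount of 5. Over the wider span, E18.5 against E15.5, 1 of the list was called higher and 9 lower. Neurod4 had 27.5, 19.7 and 22.2 TPM at E17.5, against 7.32, 7.60, 7.68 and 14.6 TPM at E16.5 (1.27 ± 0.21 SE). Neurod2 and Neurod6, bHLH factors of young neurons, fell by similar amounts, with Neurod6 at 408, 164 and 161 TPM at E17.5, against 601, 953, 735 and 660.0 TPM at E16.5 (-1.71 ± 0.21 SE, adjusted p = 2.04e-09). Eomes, which codes for Tbr2, and the proneural factor Neurog2 were not called; Eomes had 737, 532 and 551 TPM at E17.5, against 247, 318, 352 and 672 TPM at E16.5 (0.70). For Neurod4, Btbd17, Mfap4 and Eomes, E16.5 replicate 4 was the library of its group nearest to E17.5.

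The cell division genes that were called were all higher at E17.5. In the mitosis list 14 of 18 rose and none fell (median 1.24). The kinase Cdk1 had 125.4, 198 and 191 TPM at E17.5, against 64.8, 43.7, 43.6 and 78.1 TPM at E16.5 (1.57 ± 0.19 SE, adjusted p = 4.39e-10). Cyclin B1 (Ccnb1, 1.51), polo-like kinase 1 (Plk1, 1.41) and topoisomerase 2 alpha (Top2a, 1.19) rose as well. Mki67, a proliferation marker, had a difference of -0.42 with 56.2, 53.8 and 94.3 TPM at E17.5, against 100.3, 66.7, 89.5 and 102 TPM at E16.5, and the kinetochore genes Cenpf (-0.79) and Cenpe (-0.92) were also below 0, none of them called.

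DNA replication genes were higher in 7 of 16 cases and lower in none (median 0.95), a count that was 4 without E16.5 replicate 2 or replicate 3 and 11 without E17.5 replicate 1. Rrm2, of the enzyme that makes deoxyribonucleotides, had 317, 478 and 483 TPM at E17.5, against 196, 142, 139.8 and 220.3 TPM at E16.5 (1.29 ± 0.16 SE). Of the G1 genes, 5 of 13 rose, among them cyclin D1 (Ccnd1, 1.70) and cyclin D2 (Ccnd2, 1.29). Cdkn2c, an inhibitor of the cyclin D kinases, rose too (1.29); the inhibitors Cdkn1b (-0.11) and Cdkn1c (-0.61) were not called.

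Against 13.4% of all genes called in either direction, none of 8 heterochronic genes was called, with Hmga2, a chromatin protein of young stem cells, at 1.75, 1.85 and 2.46 TPM at E17.5, against 1.43, 0.820, 1.42 and 2.00 TPM at E16.5. Cholesterol synthesis had none of 17 (median 0.39). Near the share of all genes, glycolysis had 1 higher, Ldha (1.07 ± 0.10 SE), and 1 lower, Pfkp (-1.05 ± 0.18 SE), of 14. Among 19 genes of DNA methylation and Polycomb, Uhrf1, the partner of Dnmt1 at replication, rose (1.24) and Tet2, a methylcytosine oxidase, fell (-1.02); Ezh2 (0.23) and Dnmt3a (0.78) were not called. Ldha was not called without E17.5 replicate 1, Pfkp and Tet2 were not called without E17.5 replicate 2 or E16.5 replicate 3, and Tet2 was not called without E17.5 replicate 3. No gene of the 13 tested for dissociation stress was called, and that list summed to 601, 721 and 915 TPM at E17.5, against 735, 564, 601 and 694 TPM at E16.5, with overlap.

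Markers of other cell types were measured for the same libraries. Meninges and choroid plexus genes were higher in 4 of 5 tested cases (Ttr, Dcn, Folr1 and Col1a2) and summed to 13.7, 227 and 30.1 TPM at E17.5, against 3.04, 2.30, 2.42 and 2.71 TPM at E16.5. The count was 2 without E17.5 replicate 2, where Folr1 and Col1a2 lost their call, and 2 with a pseudocount of 5. On the neighbouring days the list summed to 33.4 to 113.6 TPM at E15.5 and 4.50 to 15.2 TPM at E18.5. The E16.5 libraries were thus the lowest of these stages, and Ttr had 43.8, 53.9, 25.5 and 106.8 TPM at E15.5. Over the wider span, E18.5 against E15.5, 0 of the 5 were called higher and 1 lower. Replicate 2 of E17.5, the library with most Ttr, also had most Folr1, a folate receptor of the choroid plexus, at 0.844, 4.65 and 1.31 TPM at E17.5, against 0.0987, 0, 0.0718 and 0 TPM at E16.5. Dcn, a proteoglycan of the meninges, had 6.69, 8.51 and 10.2 TPM at E17.5, against 0.241, 0.134, 0.156 and 0.212 TPM at E16.5 and was alike in the 3 E17.5 libraries. Of the endothelial and pericyte genes, 3 of 9 were higher (Kdr, Pdgfrb and Cspg4), the last also an oligodendrocyte precursor gene. Cldn5, Pecam1, Cdh5, Flt1, Esam and Rgs5 were not called (list median 0.22, lowest -0.10). The list, with Pdgfrb and Cspg4 included, summed to 37.04, 70.9 and 53.8 TPM at E17.5, against 33.2, 21.5, 24.99 and 16.8 TPM at E16.5. Ependymal genes were higher in 4 of 5 tested cases, led by Dynlrb2 (1.92) and Foxj1, the master factor of motile cilia, with 15.6, 30.9 and 25.4 TPM at E17.5, against 5.57, 4.29, 5.17 and 6.94 TPM at E16.5 (1.91 ± 0.19 SE). With a pseudocount of 5 the count was 1 for the ependymal list and 1 for the endothelial and pericyte list.

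Of the microglial list, 9 genes, C1qa among them, were under the minimum of 1 TPM for testing, and 1 of the other 3 was higher. C1qa had 0.238, 0.650 and 0.885 TPM at E17.5 and at most 0.106 TPM at E16.5. Erythroid genes summed to 196, 366 and 216 TPM at E17.5, against 214, 174, 101 and 31.6 TPM at E16.5; Hbb-bs alone was called, a call lost in 18 of 28 alternatives, among them the removal of any 1 of the E17.5 libraries, and reads of near-identical adult globin genes cannot be split with certainty. The embryonic globins Hba-x and Hbb-bh1 were listed at 0 in all 7 libraries. Interneuron and ventral forebrain genes were higher in 3 of 15 cases (Dlx2, Gsx2 and Vax1) and lower in 3 (Gad1, Lhx6 and Sst), and their sums overlapped: 488, 1075 and 973 TPM at E17.5, against 970.3, 578, 544 and 369 TPM at E16.5. The higher count was 1 without E16.5 replicate 4, E17.5 replicate 2 or E17.5 replicate 3, and the lower count was 1 without E17.5 replicate 3. Gsx2, of ventral progenitors, had 17.2, 38.5 and 40.6 TPM at E17.5, against 16.1, 8.53, 9.37 and 11.7 TPM at E16.5 (1.36 ± 0.35 SE), and Gad1, a GABA synthesis enzyme, had 23.9, 22.8 and 24.3 TPM at E17.5, against 111, 65.7, 54.7 and 29.9 TPM at E16.5 (-1.28 ± 0.43 SE). None of 7 Cajal-Retzius genes was called. The part of any of these cell types in the differences was not tested.

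The stages on either side were compared in libraries that the step itself does not use. Between E18.5 and E15.5 NSC, 2897 genes (20.3%) were called, 1837 higher (12.9%) and 1060 lower (7.44%); with quantile normalization 51.0% of calls were higher in place of 63.4%, and the median of all genes was 0.0023 in place of 0.12. Of the 975 genes higher at E17.5, 724 (74.3%) were also called higher at E18.5 against E15.5, which is 39.4% of the genes called there. For the 939 lower genes the overlap was 421 (44.8%, or 39.7% of those called there), and 69 were called higher instead. Among genes with at least 20 TPM, oligodendrocyte genes showed the largest differences over this wider span, with Olig1 at 5.13 ± 0.26 SE, Pdgfra at 4.90 ± 0.21 SE and Gpr17 at 4.74. Apoe (4.68), Hepacam (4.57) and Egr1 (4.298), an immediate early gene, came next. Among lower genes Slc17a7, a vesicular glutamate transporter (-4.55), Cntn2 (-4.44) and Jakmip1 (-4.17) ranked high beside Ttr (-4.72), Sst (-4.23), an interneuron peptide, and Cabp1 (-4.16), a calcium-binding protein.

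Over the 10 NSC stages, the day that ends at E17.5 held the largest of the 9 daily steps in size for 709 (72.7%) of the genes higher at E17.5 and for 530 (56.4%) of those lower, against 18.7% of all genes; the calls chose for a large step on this day. Apoe means at E15.5, E16.5, E17.5, E18.5 and the postnatal stage (PN) were 32.4, 109, 518, 818 and 2251 TPM, higher at every stage. Id3 was high at E10.5 (86.2 TPM), low at E14.5 (6.67 TPM) and high again at E17.5 (108 TPM) and PN (350.3 TPM). Gfap means over the same last 5 stages were 0.595, 3.74, 28.2, 22.6 and 144 TPM.

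A second kind of course peaked at E17.5 among the late embryonic stages. Tac2 means from E15.5 to PN were 8.92, 10.3, 67.6, 2.44 and 16.2 TPM. Wnt8b had 1.19, 0.208, 13.6, 0.129 and 5.71 TPM at these stages, and Tesc had 5.69, 2.71, 27.4, 2.52 and 32.00 TPM. Their levels at E18.5 were thus back at or under those of E16.5. Malat1 alternated from day to day, with 440.5 TPM at E14.5, 76.5 at E15.5, 927 at E16.5, 104 at E17.5, 703 at E18.5 and 217 at PN. Mef2c, in contrast, stayed low after the step, at 67.3, 4.92, 6.64 and 9.50 TPM.

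**Figure D3:**
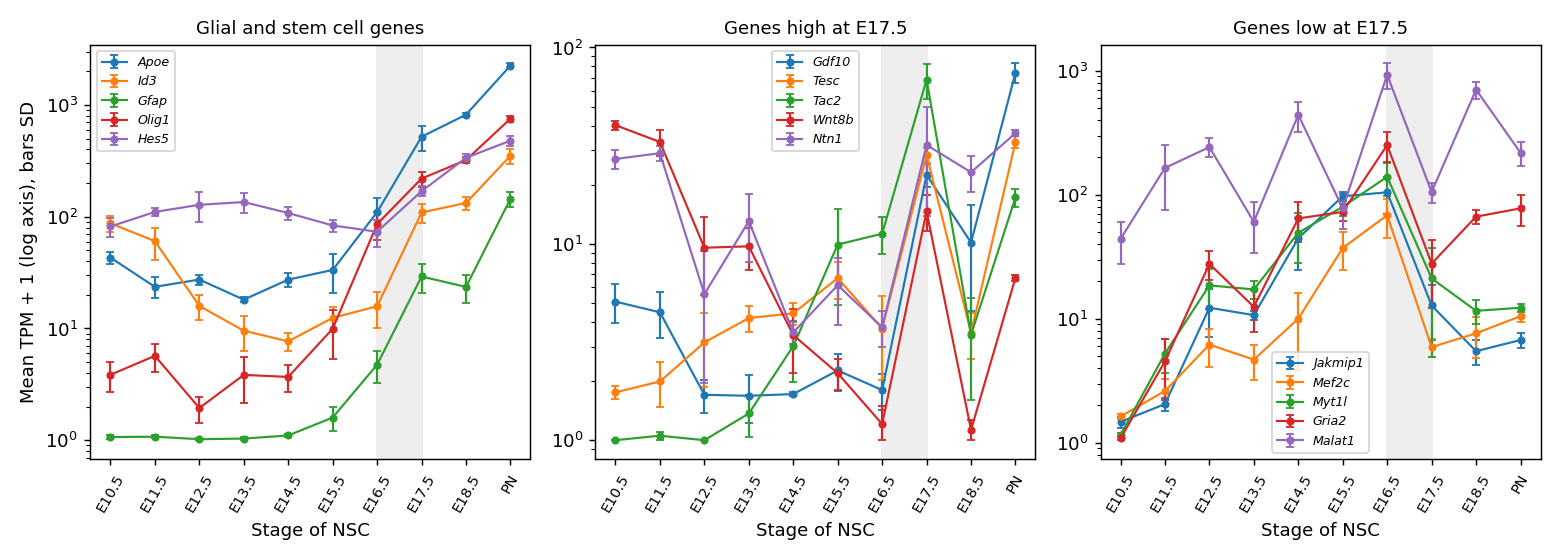
Mean TPM + 1 (log axis, bars are SD over libraries) in NSC at each of the 10 stages for 15 genes chosen after their values were seen, with the day from E16.5 to E17.5 shaded in grey. Apoe climbs at each late stage, Tac2 and Wnt8b peak at E17.5, and Malat1 alternates between neighbouring days.

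The step was also set against the mean of the day before and the day after, which share the E16.5 and E17.5 libraries with it, so a library apart in either group counts in both. In that contrast 2555 genes (17.9%) were called, 916 of them higher (6.43%); 35.9% of calls were higher, against 45.8% with quantile normalization and 47.1% with median ratio scaling (median of all genes 0.01 as deposited, 0.05 with quantile normalization and 0.13 with median ratio scaling). Ttr (8.72 ± 1.55 SE), Tesc (5.03 ± 0.42 SE), Tac2 (4.69), Gdf10 (4.46), Cav1 (3.52) and Nhlh2 (3.48) led the higher genes. Malat1 (-6.30 ± 0.45 SE), Gria2 (-4.89), Gipr (-4.12) and Caps2 (-4.12), a calcyphosine, were among the lowest. Lars2 (-4.64) and AA474408 (-4.61) also ranked there, and E16.5 replicate 1 was far above its group for both. E18.5 replicate 3 was apart too, with 1016 TPM of Lars2 against 137.6 and 157 TPM in its group. The other E16.5 libraries had 151 to 326 TPM of Lars2, against 92.3 to 157 TPM at E17.5 and 41.21 to 67.97 TPM at E15.5. How far either difference depends on these libraries is not given here. In this contrast 10 of 19 astroglia genes were higher and none lower, and 12 of 18 mitosis genes were higher and 3 lower. Of 12 oligodendrocyte lineage genes 0 were higher and 1 lower, near the 6.43% of all genes called higher, and Olig1 had -0.47.

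Basal progenitors of the same days gave a comparison in another fraction. This contrast shares its NSC libraries with the step above. The NSC step differed from the BP step for 2866 genes (20.1%), 1010 with a higher NSC step (7.09%) and 1856 with a lower one (13%). Higher calls made up 35.2%, against 47.6% with quantile normalization and 47.4% with median ratio scaling (median of all genes -0.07 as deposited, 0.04 and 0.10 in the same order). Each of the 23 genes of the largest NSC differences given above differed from BP in the direction of its NSC step, which the choice of those genes by that step favours. Some of them were hardly expressed in BP: in the 5 BP libraries Gdf10 had 0.08 to 0.60 TPM and Emp1 0.39 to 0.63 TPM. For such genes the difference of steps mostly restates the NSC step and does not compare 2 expressing fractions. Gja1 rose by 2.47 in NSC, against -0.67 in BP (difference of steps 3.14 ± 0.41 SE, adjusted p = 2.13e-08). Gfap rose in NSC (2.64) and had 1.53 in BP, the smallest difference of the higher genes (1.11 ± 0.33 SE). Serpine2, a protease inhibitor, joined Ttr, Gdf10, Gja1, Ntn1 and Vcam1 at the top of this contrast (3.19).

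On the lower side, Arpp21 had a step of -3.25 in NSC, against 1.496 in BP (difference -4.74 ± 0.37 SE). Gria2 had -3.30 in NSC, against 1.16 in BP (-4.46 ± 0.47 SE), and Malat1 had -3.13, against 0.84. Dok6, an adaptor of receptor kinases (-4.77), and Gabra2, a GABA receptor subunit (-3.96), were the other genes at this end beside Hs6st2 (-3.99). In this contrast 15 of 20 postmitotic neuron genes were lower and none higher, 12 of 19 astroglia genes were higher, and 11 of 19 Notch pathway genes were higher and 1 lower. Oligodendrocyte lineage genes were higher in 7 of 12 cases and lower in 1; Olig1 (0.72), Olig2 (0.42) and Slco1c1 (-0.52), a thyroid hormone transporter, were not called; in BP the steps of these 3 were 0.68, 0.93 and 1.95.

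**Figure D4:**
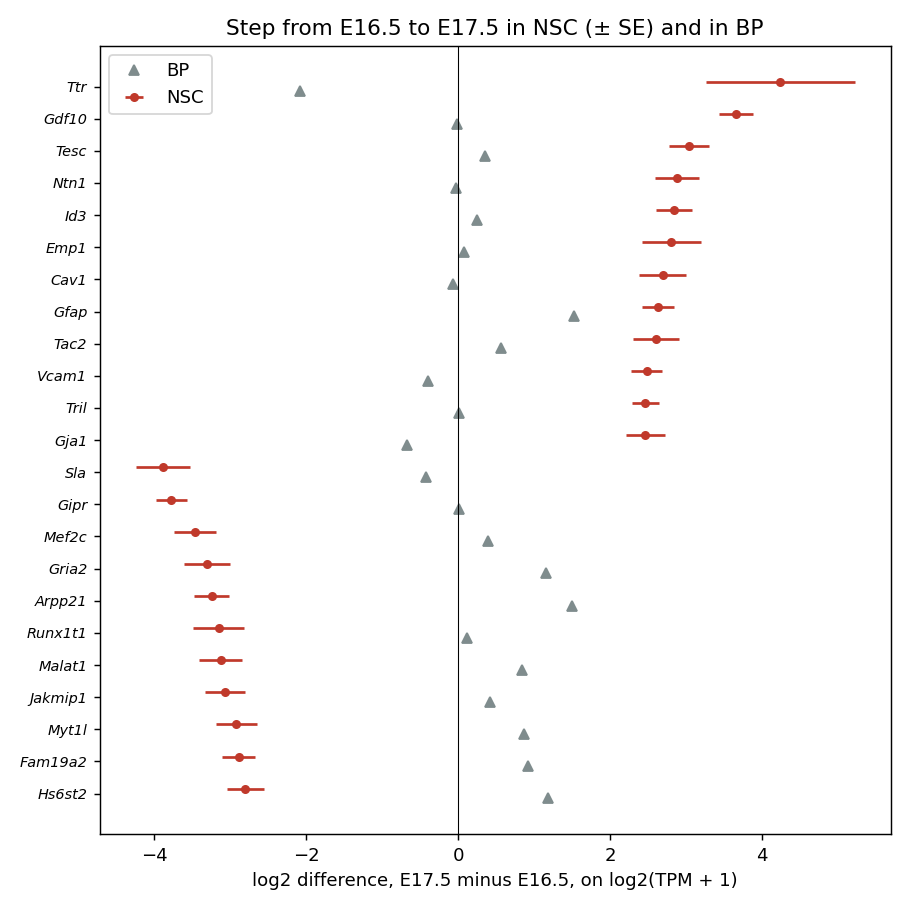
Log2 difference between E17.5 and E16.5 on log2(TPM + 1) in NSC (with SE) and in BP (5 libraries) for the 23 genes of the largest NSC differences shown here. NSC steps lie beyond 2 in either direction, and BP steps lie between -2.08 (Ttr) and 1.53 (Gfap).

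Differences moved with the base composition and length of transcripts. Genes were put into 10 equal bins by their share of G and C, and into 4 by their longest transcript. In the bin with the lowest GC (up to 41.2%) the median log2 difference was -0.29, with 232 of 1406 genes called lower and 34 higher. Of the bin with the longest transcripts 9.91% were called lower, against 5.86% of the bin with the shortest and 6.59% of all genes. The lowest GC bin had medians of 0.34 for E16.5 against E15.5 and 0.37 for E18.5 against E17.5, opposite in sign to the day between, and 0.30 for the BP step over the same day. Malat1 (42.5% GC), Gria2 (36.8%) and Mef2c (40.8%) lie in the lowest 2 GC bins, while Gfap (55.5%) and Id3 (55.6%) do not. With trends in length and GC removed from each library, an adjustment chosen after seeing the data, 1810 genes were called (1085 higher and 725 lower), 1602 of them shared. Whether library preparation moved with the days was not tested.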

How the data were processed

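RNA of sorted cells was taken up in TRIzol, made into TruSeq libraries and sequenced as short single reads, per the labels' protocols. The deposited values are TPM per gene, made by the authors with kallisto 0.43.0; the submitters' processing notes name the builds mm10 and GRCm38.p2. Such values keep no depth, so no counting intervals were computed. The file holds 23078 genes, 22361 with an identifier found in the reference.

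The 14240 genes whose mean reached 1 TPM in E17.5 or E16.5 NSC were tested with limma 3.58.1 (R 4.3.3) on log2(TPM + 1), a scale that compresses changes of weakly expressed genes. Each cell type at each stage had its own mean in a fit to all 70 libraries (23 groups, 47 residual degrees of freedom), with a variance trend and Benjamini-Hochberg adjustment over all genes tested. The other contrasts used the same fit. Genes named by size were the 12 largest called differences in each direction, with at least 20 TPM on the higher side, no overlap of libraries and a unique symbol other than predicted, clone, ribosomal protein or mitochondrial ones, and the 6 largest in each direction of the other contrasts; of the genes chosen this way, 1 is not reported, nor are some list members, which stay in the counts. Members of 31 gene lists were named in addition, and the genes and lists were chosen with earlier results of these data known. On simulated data with 200 genes changed by 1.5 on the log2 scale, among 14240, the fit recovered 97.5% for the NSC step, 96% against BP, 96% for E18.5 against E15.5 and 87% against the neighbouring steps. Alternatives covered the pseudocount, filter, scaling, variance model, library weights, minimum difference, replicate blocks, a Y-linked covariate and each library left out. Length, GC and the removal of 2 libraries together were added after seeing the data.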

Additional observations from a re-analysis of the deposited data

Results flagged for a closer look

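In 13 of 221 measures tested at E16.5 (5.88%, where chance gives about 5%), 1 of the 4 libraries lay far from the others. Replicate 1 stood apart for Lars2 (8862 TPM, others 151 to 326), AA474408 (1043 TPM, others 15.9 to 36.9) and Wnt8b (0.623 TPM, others 0.0425 to 0.117). Replicate 4 stood apart for Tac2 (13.8 TPM, others 8.87 to 9.44), Sox3 (31.8 TPM, others 11.53 to 14.8), Fgfr3 (52.1 TPM, others 27.4 to 31.6), Hey1 (20.1 TPM, others 13.1 to 14.1) and Nrarp (67.5 TPM, others 29.5 to 33.2). It was also high for Neurod4 (14.6 TPM, others 7.32 to 7.68), Btbd17 (69.2 TPM, others 31.5 to 34.6) and Mfap4 (269 TPM, others 124 to 136). Col1a2 was higher there (1.40 TPM, others 0.817 to 0.884), and Stmn4, a neuronal stathmin, was lower (220 TPM, others 364 to 389).

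The NSC step differed from the BP step, tested as a difference of steps with limma, for each of the 23 genes of the largest NSC differences reported here. Among higher genes the difference on the log2 scale was 6.32 for Ttr, 3.68 for Gdf10, 2.69 for Tesc, 2.91 for Ntn1, 2.59 for Id3, 2.73 for Emp1, 2.77 for Cav1, 1.11 for Gfap, 2.04 for Tac2, 2.88 for Vcam1, 2.46 for Tril and 3.14 for Gja1. Among lower genes it was -3.47 for Sla, -3.79 for Gipr, -3.86 for Mef2c, -4.46 for Gria2, -4.74 for Arpp21, -3.26 for Runx1t1, -3.96 for Malat1, -3.49 for Jakmip1, -3.79 for Myt1l, -3.81 for Fam19a2 and -3.99 for Hs6st2. The genes were chosen by their NSC step in the same NSC libraries, which favours such a difference. The BP side rests on 2 libraries at E17.5 and 3 at E16.5. Genes hardly expressed in BP, such as Gdf10 (0.08 to 0.60 TPM there) and Emp1 (0.39 to 0.63 TPM), mostly restate their NSC step.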

How the results depend on the processing

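The counts turned most on the size that a difference had to reach. With a pseudocount of 5, calls were 899 for the NSC step (459 higher, 440 lower), 1617 against BP (534, 1083), 1710 for E18.5 against E15.5 (1013, 697) and 1313 against the neighbouring steps (466, 847). With a minimum of 0.5 they were 5270 (2594, 2676), 6107 (2448, 3659), 6173 (3909, 2264) and 5450 (2431, 3019), and with none 8609 (4450, 4159), 7503 (3286, 4217), 9391 (5668, 3723) and 6724 (3302, 3422), in the same order. Array weights gave 1515 higher against the neighbouring steps. Without E17.5 replicate 1 and E16.5 replicate 4 together the NSC step had 1444 lower, and 1432 were higher against the neighbouring steps. Leaving out 1 library at a time gave 1689 (without E17.5 replicate 2) to 2407 (without E17.5 replicate 1) for the NSC step (848 to 1146 higher, 741 to 1263 lower), 2560 to 3400 against BP (898 to 1203, 1609 to 2197), 2788 to 3053 for E18.5 against E15.5 (1741 to 1980, 981 to 1129) and 2102 to 3334 against the neighbouring steps (765 to 1213, 1273 to 2121). Other alternatives kept these counts within 1.5 times. The 23 genes of the largest NSC differences kept their call in every alternative; of 159 other called list members 103 did, 56 lost it in some and none reversed. The causes were not tested.

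Same-numbered E17.5 and E16.5 libraries deviated together with correlations of -0.28, -0.19 and -0.31, which gave no sign of pairing by number. These values cannot exclude pairing, because libraries of different number also correlated (0.43 for E17.5 replicate 1 with E16.5 replicate 3). With the replicate number as a block the NSC step had 1936 calls (1877 shared). The count was 2896 against BP, 2941 for E18.5 against E15.5 and 2587 against the neighbouring steps, and 2253 for the step when only the compared libraries entered. Depth is unknown, so the lowest TPM cannot be given a precision.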
